A study of Mus musculus with 19 samples.

Results

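The genes described here are 10 enzymes that make and conjugate bile acids in mouse liver: Cyp7a1, Cyp8b1, Cyp7b1, Cyp39a1, Hsd3b7, Akr1d1, Amacr, Slc27a5, Baat and Cyp2c70. They were found by gene symbol, and all 10 were present among 51826 gene entries. The livers came from female Balb/c mice (strain label Balbc) listed as 12 weeks old in every group. Groups were nulliparous mice (n = 7), mice at lactation day 10 (n = 6) and mice weaned for 6 days, called involution day 6 (n = 6), each a separate animal, and the labels name no treatment or engineered allele. Poly(A) RNA of flash frozen liver was sequenced and given in TPM, a share of all transcripts that is corrected for gene length. Read depth was not used here, so the precision of each value is known only from the spread between mice.

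Bile acids are made from cholesterol in hepatocytes. The classic pathway opens with Cyp7a1, its rate-limiting hydroxylase, and Cyp8b1 steers intermediates to cholic acid, whereas the alternative pathway starts from side-chain oxysterols that Cyp7b1 and Cyp39a1 hydroxylate. Both pathways share the ring-modifying enzymes Hsd3b7 and Akr1d1 and the side-chain racemase Amacr. Slc27a5 activates bile acids with coenzyme A, Baat joins activated bile acids to taurine or glycine, and in mice Cyp2c70 makes the muricholic acids. Bile acids returning from the gut are known to repress Cyp7a1 and Cyp8b1 through Nr1h4 (Fxr), Nr0b2 (Shp) and the intestinal hormone that signals through Fgfr4 and Klb.

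Promoter sequences from RefSeq (GRCm38.p6, 250 bases before to 50 after the start of the gene) were matched by symbol for Cyp8b1, Cyp2c70, Hsd3b7 and Akr1d1, which is 4 of the 10 genes. The first 3 are shown because their mRNA separated a pair of stages without overlap in TPM. They are written 5' to 3' on the strand of the gene, and capitals mark CAAAGTCCA, a form of the site bound by Hnf4a, and CAAGGNCA, a form of the site bound by Nr5a2. The windows are chr9:121916256-121916555 (minus strand) for Cyp8b1, chr19:40187237-40187536 (minus strand) for Cyp2c70 and chr7:127800359-127800658 (plus strand) for Hsd3b7.
Cyp8b1: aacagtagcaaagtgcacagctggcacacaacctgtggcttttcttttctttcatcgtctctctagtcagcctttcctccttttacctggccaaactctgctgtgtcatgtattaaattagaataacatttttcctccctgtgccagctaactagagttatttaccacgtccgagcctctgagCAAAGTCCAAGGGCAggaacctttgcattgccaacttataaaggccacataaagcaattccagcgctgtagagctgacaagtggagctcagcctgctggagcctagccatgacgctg
Cyp2c70: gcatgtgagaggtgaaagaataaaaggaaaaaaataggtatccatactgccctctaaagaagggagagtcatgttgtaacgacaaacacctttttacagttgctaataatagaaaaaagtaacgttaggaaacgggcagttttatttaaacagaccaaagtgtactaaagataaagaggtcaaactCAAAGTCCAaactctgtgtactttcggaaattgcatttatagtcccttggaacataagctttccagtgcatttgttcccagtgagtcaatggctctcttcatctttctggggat
Hsd3b7: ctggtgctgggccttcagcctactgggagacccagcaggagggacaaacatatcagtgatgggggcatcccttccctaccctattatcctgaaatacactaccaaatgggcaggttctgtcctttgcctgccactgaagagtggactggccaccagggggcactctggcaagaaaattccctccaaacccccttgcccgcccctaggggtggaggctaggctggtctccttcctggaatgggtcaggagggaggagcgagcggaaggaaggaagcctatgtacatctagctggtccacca
Among 32851 promoters of this length, 0.475% held CAAAGTCCA and 6.71% held CAAGGNCA on either strand. Cyp8b1 held both, at -67 to -59 and at -60 to -53 from the start, overlapping by some bases, and Cyp2c70 held CAAAGTCCA at -64 to -56. Hsd3b7 held neither. A further 7 motifs were searched on both strands: CAAAGNCCA (1.98% of promoters, which includes every CAAAGTCCA), TCAAGGNCA (1.62%, a longer form of CAAGGNCA), TATAAA (13.6%), TGACCTTTG (0.478%, which holds AGGTCA on its other strand), AGGTCA (16.3%), TTGCGCAA (0.183%) and TTGCNNAA (10.8%, which includes TTGCGCAA). TATAAA lay at -31 to -26 in Cyp8b1 and, on the opposite strand, at -29 to -24 in Cyp2c70. Positions count from the RefSeq start. The GENCODE gene of Cyp2c70 begins upstream of that start, at chr19:40187333, so its TATAAA match lies within the GENCODE gene. AGGTCA lay at -74 to -69 in Cyp2c70 and also in Akr1d1, on the opposite strand, whose window also held TTGCNNAA at -8 to -1 on the opposite strand. These matches describe letters in a window and are not measured binding.

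In nulliparous liver the transcripts spanned a wide range of abundance. Cyp2c70 (633 ± 94.8 TPM, mean ± SD, n = 7), Hsd3b7 (632 ± 89.5) and Slc27a5 (602 ± 136) stood highest and lay within one another's spread. Cyp8b1 (245.5 ± 39.6), Baat (155 ± 26.9), Akr1d1 (88.0 ± 17.8) and Amacr (74.9 ± 11.3) followed, the last pair within their spread. The least abundant of the 10 members were Cyp7b1 (27.1 ± 8.61 TPM), Cyp7a1 (25.9 ± 18.96) and Cyp39a1 (13.3 ± 6.91). Cyp7a1 had the largest coefficient of variation of the members in nulliparous mice (73.3%) and at involution (95.4%), and in lactation it had 45.6%, after the 56.7% of Cyp39a1. Baat varied by 6.14% in lactation and 5.42% at involution. Each mouse is labelled by its stage (NUL, LAC or ID6) and a number from 1 to 240. The lower range, under 200, holds 3 nulliparous mice and 3 in lactation, and the upper range, from 200 up, holds the remaining 4 and 3 together with all 6 involution mice. Because several members differed between these ranges, values for mice numbered 200 and above are given where they change a call. Neither the labels nor the methods name a batch, and where involution is set against lower-numbered mice, stage and number range cannot be told apart.

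**Figure D1:**
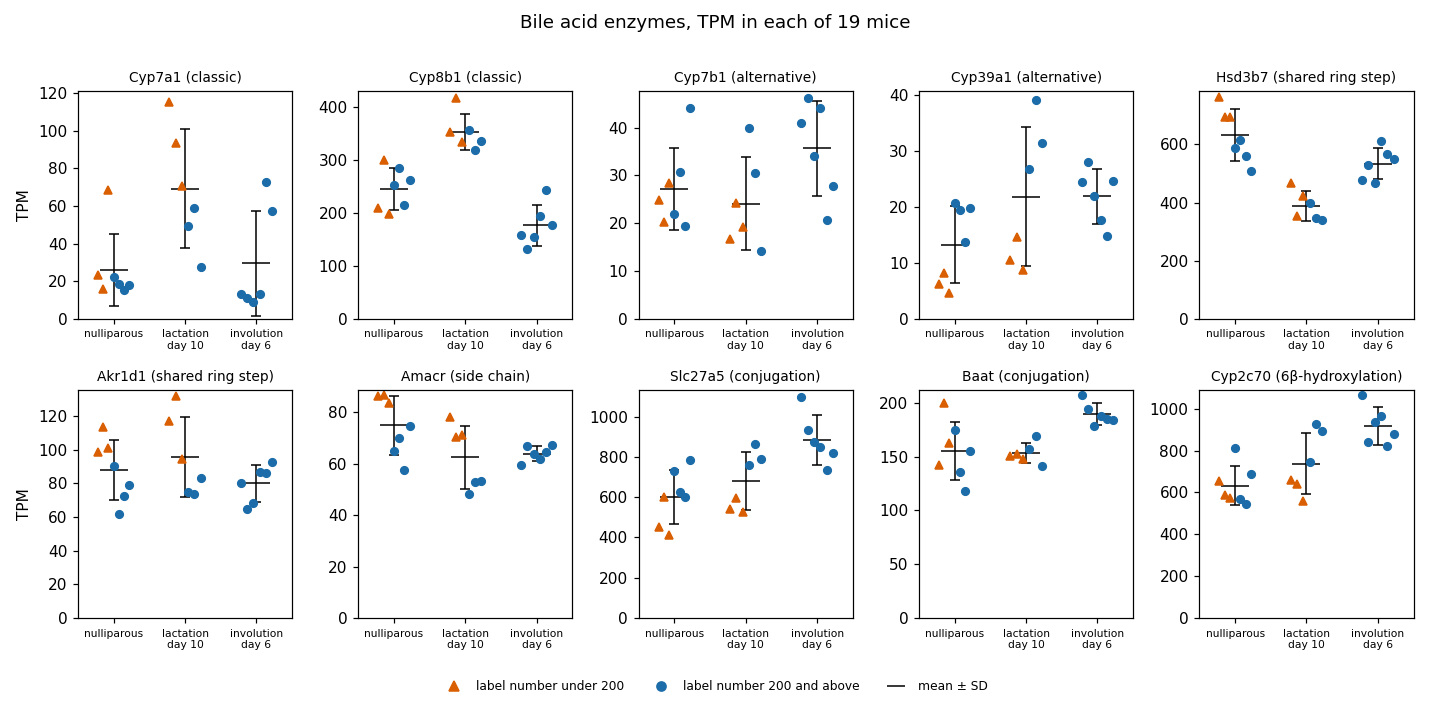
TPM (y axis, from 0) of the 10 enzymes in each of 19 mice by reproductive stage (x axis). Triangles are mice with label numbers under 200, circles those of 200 and above, and bars are mean ± SD. Cyp8b1 in all 6 lactating mice (318 to 416 TPM) lies above all nulliparous and involution mice, Hsd3b7 does the reverse, and Cyp39a1 separates by label number within each stage.

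Lactation was compared with the nulliparous state to ask which enzymes differ while mice nurse. Cyp8b1 rose, in 6 of 6 mice above every nulliparous mouse, and Hsd3b7 fell, in 6 of 6 mice below every nulliparous mouse. In limma-trend on log2(TPM + 1), with Benjamini-Hochberg adjustment over 16230 genes, 1 of 10 members rose against 2.72% of all genes and 1 of 10 fell against 6.49%. Groups that did not overlap in TPM were found for 1 member higher (0.98% of genes) and 1 lower (2.29%). With median-ratio scaling lactating mouse LAC_240 came just below nulliparous mouse NUL_4 for Cyp8b1. With the threshold of 1 on the log2 change that the study added, 0 of 10 were called, against 0.746% of genes. An unadjusted limma p under 0.05 was found for 4 of 10 members and for 3748 of the 16230 genes. The median log2 change of the members was 0.15, and that of all genes tested was -0.03. Over all genes 441 rose and 1053 fell, and with median-ratio scaling of the mice 681 rose and 814 fell. In RNA of whole liver, fewer cells of a type and less RNA per cell cannot be told apart, and the marker genes of cell types are given at the end.

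Involution against lactation asks how the enzymes differ once suckling has ended. Cyp8b1 and Cyp7a1 fell, whereas Hsd3b7 and Baat rose. By limma with adjusted p, 2 of 10 members rose against 18.1% of all genes and 2 of 10 fell against 4.73%. Both falling members also passed the threshold of 1 on the log2 change, which 1.93% of genes did. In TPM all 6 involution mice were above all lactating mice for 2 members (9.3% of genes) and below them for 1 (2.16%). The 2 members above, Hsd3b7 and Baat, overlapped with median-ratio scaling. The members' median log2 change was 0.24 and that of all genes was 0.10. Across all genes 2936 rose and 767 fell, a split that became 1366 and 1262 with median-ratio scaling. With that scaling 0 members rose and 2 fell. The lactating mice are the same animals in both comparisons.

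At involution relative to nulliparous mice, Cyp2c70 and Slc27a5 were higher and Cyp8b1 was lower. These are 2 of 10 members higher against 3.44% of genes and 1 of 10 lower against 0.912% (limma, adjusted p). Without overlap in TPM, 1 member was higher (1.84% of genes) and 0 were lower (0.542%). That member, Cyp2c70, overlapped with median-ratio scaling. None of the 10 passed the added threshold of 1 in limma, against 0.253% of genes. An unadjusted p under 0.05 was found for 6 of 10 members and for 4077 of the 16230 genes. The members' median log2 change was 0.10 beside 0.07 over all genes (559 of 707 called genes were higher, or 169 of 396 with median-ratio scaling). Among mice numbered 200 and above, and with number range as a covariate, 0 of 10 members were called in this comparison by limma. Of the 16230 genes, 83 were higher and 50 lower among mice numbered 200 and above. With the covariate 174 were higher and 81 lower. With so few calls over all genes, 0 of 10 cannot set the members apart from other genes.

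**Figure D2:**
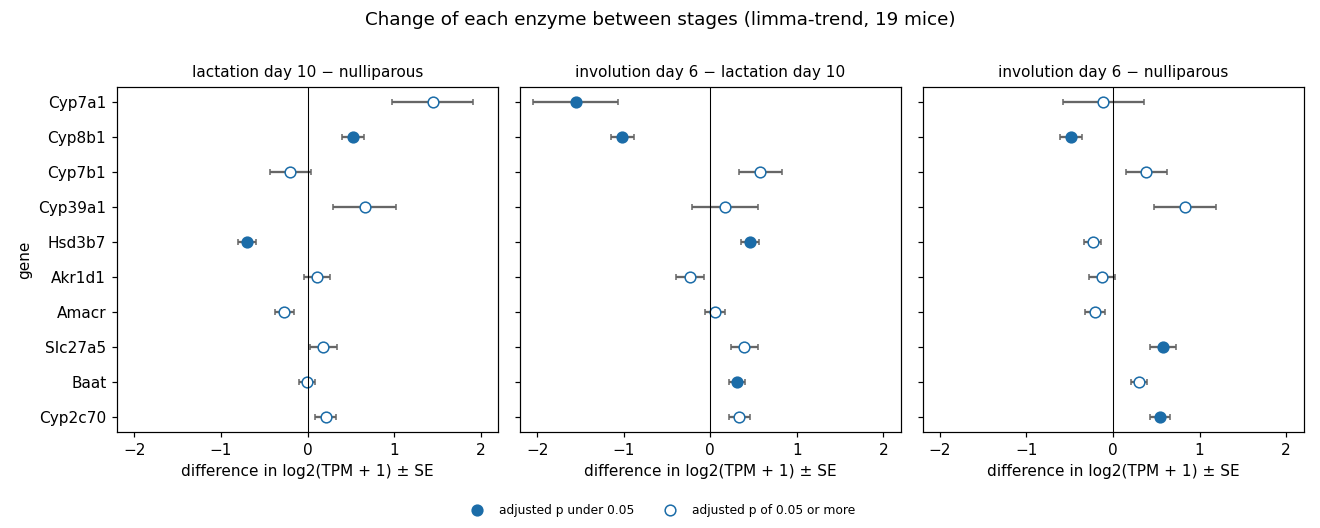
Difference in log2(TPM + 1) between stages (x axis) for each enzyme (y axis), with bars of 1 SE from limma-trend over 19 mice. Filled points have an adjusted p under 0.05: Cyp8b1 (0.53) and Hsd3b7 (-0.70) in lactation, Cyp7a1, Cyp8b1, Hsd3b7 and Baat at involution relative to lactation, and Cyp8b1, Slc27a5 and Cyp2c70 at involution relative to nulliparous mice.

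Of the classic pathway, Cyp8b1 (ENSMUSG00000050445, GRCm38 chr9:121914356-121916305, minus strand, protein coding) ran from 198 to 300 TPM in nulliparous mice (lowest 197.67, median 252.8, highest 299.91). It was 318 to 416 TPM in lactation (median 344) and 132 to 243 TPM at involution (median 168). In TPM every lactating mouse was above every mouse of the other stages, while nulliparous and involution mice overlapped. With median-ratio scaling LAC_240 (335.98 TPM, factor 1.009) falls just below NUL_4 (299.91 TPM, factor 0.8981). The log2 change was 0.53 ± 0.12 (SE) in lactation (limma, adjusted p = 0.0109), -1.01 ± 0.13 from lactation to involution (adjusted p = 2.4e-05) and -0.49 ± 0.12 at involution relative to nulliparous mice (adjusted p = 0.0355). The fall after weaning held in mice numbered 200 and above, with a log2 change of -0.95 ± 0.15 and an adjusted p of 0.00121 in limma. The rise in lactation was 0.42 (limma, adjusted p = 0.164) in those mice and 0.66 (adjusted p = 0.0943) in mice numbered under 200, so neither range alone passed the threshold. The lower level at involution than in nulliparous mice lost its call when NUL_4, NUL_221, ID6_201, ID6_209, ID6_216 or ID6_232 was left out, with limma adjusted p from 0.0561 to 0.0844.

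Cyp7a1 (ENSMUSG00000028240, chr4:6265612-6275633, minus strand, protein coding) varied widely between mice of the same stage. Its lowest, median and highest values were 15.0, 18.7 and 68.3 TPM in nulliparous mice and 27.4, 64.7 and 115 TPM in lactation. At involution 4 mice lay at 8.95 to 13.1 TPM, and mice ID6_230 and ID6_232 lay at 72.9 and 57.2 TPM, within the range of lactation. Over all mice the stages overlapped, but within each number range every lactating mouse was above every nulliparous mouse. Under 200 the lactating mice had 70.65 to 115.49 TPM and the nulliparous mice 15.65 to 68.3 TPM. At 200 and above they had 27.39 to 58.82 and 15.03 to 22.14 TPM. Neither range alone passed in limma (1.61, adjusted p = 0.138 under 200, and 1.19, adjusted p = 0.312 at 200 and above). The log2 change in lactation was 1.44 ± 0.47 (SE) with a limma adjusted p of 0.0611. It passed the threshold without nulliparous mouse NUL_13 (1.71, adjusted p = 0.023), without lactating mouse LAC_240 (1.68, adjusted p = 0.0378), with number range as a covariate (1.38, adjusted p = 0.0388) and when only the compared groups were fitted (adjusted p = 0.0319). From lactation to involution Cyp7a1 fell by 1.56 on the log2 scale (SE 0.49, limma adjusted p = 0.0278). That call was lost without any 1 of 7 mice (LAC_36, LAC_102, LAC_133, ID6_201, ID6_209, ID6_216 or ID6_218, limma adjusted p from 0.0523 to 0.0686) and among mice numbered 200 and above (-1.02, adjusted p = 0.278).

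In the alternative pathway, Cyp7b1 (ENSMUSG00000039519, chr3:18071950-18243338, minus strand), the oxysterol hydroxylase, ran from 19.3 to 44.1 TPM in nulliparous mice (median 24.9), from 14.2 to 39.9 TPM in lactation (median 21.7) and from 20.7 to 46.1 TPM at involution (median 37.6). The groups overlapped in each comparison. Its log2 change was -0.20 in lactation (limma, adjusted p = 0.672) and 0.58 ± 0.24 from lactation to involution (adjusted p = 0.0963). The latter passed without lactating mouse LAC_200 (0.74, limma adjusted p = 0.0311) or involution mouse ID6_230 (0.72, adjusted p = 0.0422). It was 0.43 with median-ratio scaling (limma, adjusted p = 0.267), 0.39 among mice numbered 200 and above (adjusted p = 0.49) and 0.45 with range as a covariate (adjusted p = 0.289). Involution mouse ID6_230, the highest of its stage for Cyp7a1 and Cyp8b1, was the lowest for Cyp7b1, Cyp39a1, Slc27a5 and Cyp2c70.

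Cyp39a1 (ENSMUSG00000023963, chr17:43667425-43751431, plus strand), which hydroxylates an oxysterol formed mainly in brain, was ordered by label number before stage. Nulliparous mice numbered under 200 had 6.26, 8.24 and 4.59 TPM and those of 200 and above had 20.8, 19.4, 13.8 and 19.8 TPM. In lactation the lower-numbered mice had 10.5, 14.6 and 8.67 TPM and the others 26.9, 39.1 and 31.4 TPM. Within each range every lactating mouse was above every nulliparous mouse, a separation that was not counted over all genes. Over all mice the stages overlapped. The lactation change was 0.66 ± 0.36 over all mice (limma, adjusted p = 0.292), 0.78 ± 0.20 among mice numbered 200 and above (adjusted p = 0.0366), 0.74 ± 0.24 among those under 200 (adjusted p = 0.142) and 0.76 ± 0.16 with range as a covariate (adjusted p = 0.00278). At involution the values were 14.8 to 28.2 TPM (median 23.2), and the change from lactation turned from 0.17 over all mice (adjusted p = 0.781) to -0.55 with the covariate (limma, adjusted p = 0.0445) and to -0.56 among mice numbered 200 and above (adjusted p = 0.0692).

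Among the shared ring enzymes, Hsd3b7 (ENSMUSG00000042289, chr7:127800604-127803802, plus strand), the hydroxysteroid dehydrogenase that acts after either hydroxylase, moved opposite to Cyp8b1. It was 508 to 763 TPM in nulliparous mice (median 614), 341 to 466.25 TPM in lactation (median 376) and 468 to 611 TPM at involution (median 539). In TPM all lactating mice were below all others. With median-ratio scaling ID6_216 (468.39 TPM, factor 1.013) falls below LAC_36 (466.25 TPM, factor 0.9856). The log2 change was -0.70 ± 0.10 in lactation (limma, adjusted p = 2.39e-04) and stood at -0.65 (adjusted p = 0.00292) in mice numbered 200 and above and -0.80 (adjusted p = 0.0325) in those under 200. From lactation to involution it rose by 0.46 ± 0.10 (limma, adjusted p = 0.00316), by 0.56 among mice numbered 200 and above (adjusted p = 0.00161) and by 0.31 with median-ratio scaling, which did not pass (adjusted p = 0.0875). Akr1d1 (ENSMUSG00000038641, chr6:37530173-37568815, plus strand), the reductase that sets the bent ring shape of bile acids, was 62.0 to 113 TPM in nulliparous mice, 73.7 to 132 TPM in lactation and 64.9 to 92.9 TPM at involution. Its groups overlapped, and no stage comparison passed in limma (adjusted p from 0.299 to 0.718).

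Amacr (ENSMUSG00000022244, chr15:10981756-10996626, plus strand), the racemase needed before the side chain is shortened, showed a smaller change that was also ordered by label number. Nulliparous mice numbered under 200 had 86.5, 86.9 and 83.5 TPM, and lactating mice of that range had 78.3, 70.5 and 71.4 TPM. In the upper range the nulliparous values were 65.1, 70.0, 57.7 and 74.8 TPM and the lactation values 48.3, 53.0 and 53.5 TPM. Lactating mice were below nulliparous mice within each range, without overlap, though the share of all genes that do so was not counted. The change was -0.27 over all mice (limma, adjusted p = 0.155), -0.30 ± 0.06 with range as a covariate (adjusted p = 0.00158), -0.36 ± 0.08 among mice of 200 and above (adjusted p = 0.0181) and -0.22 ± 0.06 among those under 200 (adjusted p = 0.102). At involution Amacr was 59.7 to 67.3 TPM, above the 3 lactating mice numbered 200 and above (0.31 ± 0.08, limma adjusted p = 0.0164), whereas over all mice the change was 0.06, or -0.09 with median-ratio scaling.

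For the conjugation steps, Baat (ENSMUSG00000039653, chr4:49489422-49506557, minus strand) was 118 to 199.99 TPM in nulliparous mice (median 155), 141 to 169 TPM in lactation (median 151) and 178 to 207 TPM at involution (median 187). In TPM every involution mouse was above every lactating mouse, and the nulliparous mice overlapped both. With median-ratio scaling ID6_232 (183.95 TPM, factor 1.128) falls below LAC_213 (169.0 TPM, factor 0.9518). In limma the log2 change was -0.0054 in lactation (adjusted p = 0.984), 0.31 ± 0.09 from lactation to involution (adjusted p = 0.0238) and 0.30 ± 0.09 at involution relative to nulliparous mice (adjusted p = 0.0617). The rise from lactation was 0.15 with median-ratio scaling (limma, adjusted p = 0.401), 0.28 among mice numbered 200 and above (adjusted p = 0.0905), and 0.28 without mouse ID6_201 (adjusted p = 0.0508). Slc27a5 (ENSMUSG00000030382, chr7:12988346-12998192, minus strand) was 410 to 787 TPM in nulliparous mice (lowest 409.82, median 603), 528 to 865 TPM in lactation (median 679) and 737 to 1099.6 TPM at involution (median 863). Stages overlapped, and the highest value was in involution mouse ID6_201. It was higher at involution than in nulliparous mice by 0.58 ± 0.15 (limma, adjusted p = 0.0399), a call lost without any 1 of 8 mice (NUL_1, NUL_4, NUL_13, ID6_201, ID6_209, ID6_216, ID6_218 or ID6_232, adjusted p from 0.0586 to 0.0929). Among mice numbered 200 and above that difference was 0.36 (limma, adjusted p = 0.176), and with median-ratio scaling 0.47 (adjusted p = 0.0985).

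Cyp2c70 (ENSMUSG00000060613, chr19:40153353-40187333, minus strand), one of a cluster of similar Cyp2c genes among which reads can be shared, was 545 to 813 TPM in nulliparous mice (median 586), 557 to 928 TPM in lactation (median 701) and 821 to 1064 TPM at involution (median 908). In TPM all 6 involution mice were above all 7 nulliparous mice, while lactation overlapped both. With median-ratio scaling ID6_230 (821.43 TPM, factor 1.114) falls below NUL_220 (813.29 TPM, factor 1.006), so the groups overlap. The difference between involution and nulliparous mice was 0.54 ± 0.12 (limma, adjusted p = 0.0178) and kept its call without any 1 mouse (adjusted p up to 0.0443). It was 0.50 (adjusted p = 0.0729) among mice numbered 200 and above and 0.43 with median-ratio scaling (adjusted p = 0.0638) in limma. From lactation to involution Cyp2c70 differed by 0.33 (limma, adjusted p = 0.054), which passed without lactating mouse LAC_213 (0.41, adjusted p = 0.0194) or LAC_240 (0.39, adjusted p = 0.0264). That difference was 0.18 with median-ratio scaling (limma, adjusted p = 0.369), 0.10 among mice numbered 200 and above (adjusted p = 0.645) and 0.20 with range as a covariate (adjusted p = 0.266).

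The ranges of label number were compared within stage in the 13 nulliparous and lactating mice. Cyp39a1 (log2 difference 1.44 ± 0.15, limma adjusted p = 2.32e-05) and Slc27a5 (0.52 ± 0.09, adjusted p = 0.00143) were higher in mice numbered 200 and above. Akr1d1 (-0.50, adjusted p = 0.00175), Amacr (-0.42, adjusted p = 3.6e-04), Hsd3b7 (-0.27, adjusted p = 0.0199) and Cyp7a1 (-0.85, adjusted p = 0.0479) were lower in limma. These were 2 of 10 members higher against 16.5% of all genes and 4 of 10 lower against 9.11%, and 1 of 10 passed the threshold of 1 against 1.94%. Over all genes 2670 were higher and 1479 lower, or 1836 and 2047 with median-ratio scaling. The call of Cyp7a1 was lost when any 1 mouse except NUL_4 was left out (limma, adjusted p up to 0.0999), and that of Hsd3b7 without NUL_1 (adjusted p = 0.0531). Whether the lactation change itself differed between ranges was tested as an interaction, and 0 of 10 members passed in limma, against 0.111% of genes. An unadjusted p under 0.05 was found for 0 of 10 members and for 2161 of the 16230 genes.

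**Figure D3:**
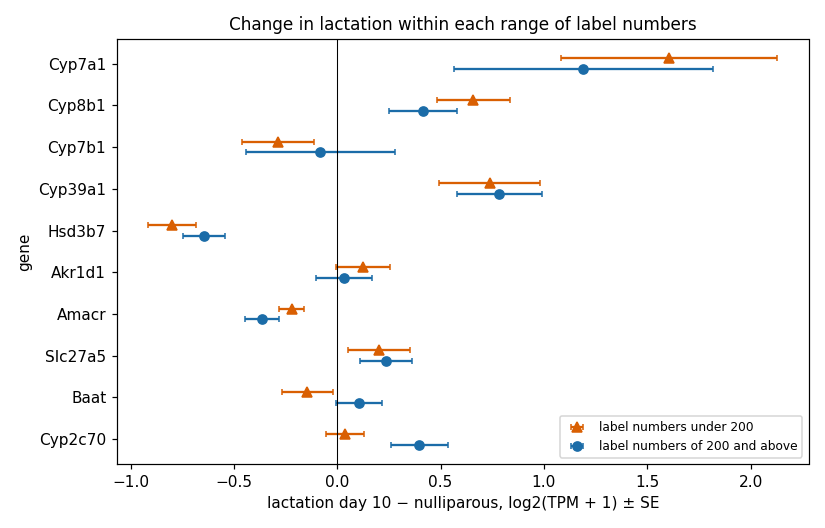
Lactation minus nulliparous difference in log2(TPM + 1) (x axis) for each enzyme (y axis), fitted by limma among mice with label numbers under 200 (triangles, 3 and 3 mice) and of 200 and above (circles, 3 and 4 mice), with bars of 1 SE. Cyp39a1 (0.74 and 0.78) and Hsd3b7 (-0.80 and -0.65) lie close in both ranges.

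Ratios between steps within a mouse do not depend on how the mice are scaled, and are given as a description. The log2 ratio of Cyp7a1 to Cyp7b1, the hydroxylases of the classic and alternative pathways, was -1.29 to 1.26 in nulliparous mice and 0.31 to 2.80 in lactation. At involution 4 mice were between -2.03 and -1.65, and mice ID6_230 and ID6_232 were at 1.82 and 1.04. Cyp7a1 thus exceeded Cyp7b1 in all 6 lactating mice and in 2 of 6 involution mice. The log2 ratio of Cyp2c70 to Cyp8b1, the muricholic and cholic acid branches, was 0.97 to 1.69 in nulliparous mice, 0.63 to 1.54 in lactation and 1.75 to 2.75 at involution, where every mouse was above every mouse of the other stages. Cyp8b1 to Cyp7a1 was 1.53 to 4.26, 1.61 to 3.62 and 1.63 to 4.10 in the same order of stages, which overlapped throughout. The ratio of Baat to Slc27a5 followed label number, with -1.68 to -1.34 in nulliparous mice under 200 and -2.35 to -2.07 in the others, and -1.97 to -1.83 and -2.49 to -2.27 in lactation.

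**Figure D4:**
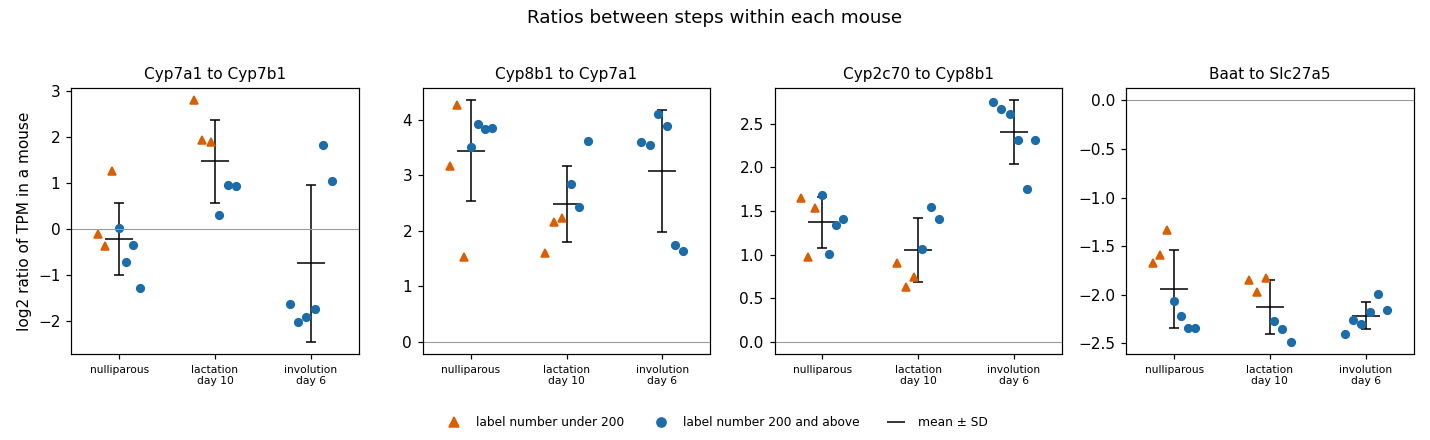
Log2 ratio of the TPM of paired enzymes within each mouse (y axis) by stage (x axis), with symbols for label number range and bars of mean ± SD. Cyp2c70 to Cyp8b1 is highest in the 6 involution mice (1.75 to 2.75), and Cyp7a1 to Cyp7b1 falls into 4 low and 2 high involution mice.

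Across the 19 mice, each taken relative to the average of its own stage and number range, Cyp7a1 showed no relation past the threshold with the 3 enzymes tested. Pearson's r was 0.31 with Cyp8b1 (permutation p = 0.372, adjusted 0.436), -0.20 with Cyp7b1 (permutation p = 0.436, adjusted 0.436) and 0.28 with Hsd3b7 (permutation p = 0.305, adjusted 0.436). Spearman's rho was 0.25 (permutation p = 0.371, adjusted 0.557), -0.12 (permutation p = 0.646, adjusted 0.646) and 0.31 (permutation p = 0.227, adjusted 0.557). Without involution mice ID6_230 and ID6_232, r was -0.04, 0.19 and 0.19. Within the ranges, r with Cyp8b1 was 0.66 in 13 mice numbered 200 and above and -0.62 in 6 mice under 200. With Cyp7b1 it was -0.32 and 0.52, and with Hsd3b7 0.39 and -0.01.

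The genes whose log2(TPM + 1) was most like a member's over the 19 mice were taken from 11606 genes averaging 1 TPM or more, as a description in which stage and label number are shared by all points. For Cyp8b1 they were Stard4 (r = 0.89), a sterol carrier, the glycolytic genes Aldoc (0.89) and Pfkfb1 (0.88), Dhcr7 (0.87), the last enzyme of cholesterol synthesis, and Mmab (0.86). For Cyp7a1 they were Tbcel (0.84), Gm42434 (0.82), Ajuba (0.82), Ahcyl1 (0.82) and Gm45909 (0.82). For Cyp7b1 they were Ppp1r3c (0.79), Cnih4 (0.76), Cyp2c68 (0.75), Sdf4 (0.72) and Lair1 (0.72).

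Of 11 other genes of the pathway, 10 passed the filter on low values, and Ch25h, an oxysterol-forming hydroxylase, was at most 0.12 TPM. In lactation 0 of 10 rose in limma (2.72% of all genes) and 2 of 10 fell (6.49%). An unadjusted p under 0.05 was found for 3 of 10, against 3748 of the 16230 genes. The fallers were Scp2 (-0.46, limma adjusted p = 7.72e-04), the peroxisomal thiolase and sterol carrier, and Akr1c6 (-0.71, adjusted p = 0.00861), a hydroxysteroid dehydrogenase with close paralogs. From lactation to involution 2 of 10 rose against 18.1% of all genes. Scp2 rose by 0.58 (limma, adjusted p = 4.87e-05), by 0.43 with median-ratio scaling (adjusted p = 0.0063) and by 0.54 among mice numbered 200 and above (adjusted p = 0.00125). Akr1c6 rose by 0.71 (limma, adjusted p = 0.00492) and by 0.90 among mice numbered 200 and above (adjusted p = 2.01e-04), and its value with median-ratio scaling was 0.56 (adjusted p = 0.0574), so that with this scaling 1 of 10 rose and 5 fell.

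Over all mice, 4 of the 10 fell from lactation to involution, against 4.73% of all genes. They were the peroxisomal genes Abcd3 (-0.60, limma adjusted p = 0.0245), Acox2 (-0.50, adjusted p = 0.00962) and Hsd17b4 (-0.39, adjusted p = 0.0157) and the brain oxysterol enzyme Cyp46a1 (-0.28, adjusted p = 0.0259). Cyp46a1 was scarce, with means of 1.115 TPM in lactation and 0.74 TPM at involution. Among mice numbered 200 and above none of these 4 passed in limma, with -0.22 for Abcd3 (adjusted p = 0.163), -0.26 for Acox2 (adjusted p = 0.0899), -0.19 for Hsd17b4 (adjusted p = 0.136) and -0.30 for Cyp46a1 (adjusted p = 0.0789). Only 575 of 16230 genes fell in that setting, so the lack of a call does not set these 4 apart from other genes. Abcd3, Acox2 and Hsd17b4 were themselves lower in mice numbered 200 and above within stage (-0.69, -0.45 and -0.39). The part of number range in their fall was not tested. Relative to nulliparous mice, 0 of 10 rose (3.44% of all genes) and 1 of 10 fell at involution (0.912%), the peroxisomal thioesterase Acot8 (-0.50, limma adjusted p = 0.0438), which was -0.35 among mice numbered 200 and above (adjusted p = 0.155). Within stage, 0 of 10 were higher in mice numbered 200 and above (16.5% of all genes) and 7 of 10 were lower (9.11%), with a list median of -0.41 against 0.05 over all genes. Cyp27a1, the sterol hydroxylase that supplies the alternative pathway with oxysterol, was 293 ± 51.9 TPM in nulliparous mice, 306 ± 13.8 in lactation and 293 ± 31.3 at involution.

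Of 11 regulators, 1 rose in lactation (2.72% of all genes) and 0 fell (6.49%). It was Klb (0.35, limma adjusted p = 0.0421), which was 0.26 among mice numbered 200 and above (adjusted p = 0.414). From lactation to involution 1 of 11 rose (18.1% of all genes) and 0 fell (4.73%). This was Nr1h3, the oxysterol receptor Lxr alpha (0.35, limma adjusted p = 0.00345), at 0.19 with median-ratio scaling (adjusted p = 0.0483) and 0.25 among mice numbered 200 and above (adjusted p = 0.0237). With median-ratio scaling Klb also fell (-0.43, limma adjusted p = 0.00487). At involution relative to nulliparous mice 0 of 11 were called by limma (3.44% of all genes higher and 0.912% lower). An unadjusted p under 0.05 was found for 2 of 11, against 4077 of the 16230 genes. In nulliparous, lactating and involution mice Nr0b2 (Shp) was 86.1 ± 29.8, 59.7 ± 29.6 and 97.4 ± 22.7 TPM. Its groups overlapped over all mice. From lactation to involution its change was 0.81 (limma, adjusted p = 0.0544), or 0.66 with median-ratio scaling (adjusted p = 0.155). The change was 1.35 among mice numbered 200 and above (limma, adjusted p = 0.0102), where lactation (27.8 to 53.9 TPM) and involution (62.0 to 123 TPM) did not overlap. With range as a covariate the change was 1.14 (limma, adjusted p = 0.00805). The share of all genes that separate among mice numbered 200 and above was not counted. Between number ranges 3 of 11 (Nr1h3, Rxra and Hnf4a) were higher in mice of 200 and above, against 16.5% of all genes, and 3 of 11 (Mafg, Nr5a2 and Nr1h4) were lower, against 9.11% (limma, adjusted p from 0.0151 to 0.0484). With median-ratio scaling these counts were 1 and 4.

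Marker genes of cell types and zones differed between stages and between number ranges. Summed hepatocyte markers (4 of the 5 symbols searched had a match) were 53900 to 88700 TPM in nulliparous mice, 94800 to 145000 in lactation and 74300 to 105000 at involution. Of these 4, 1 rose and 0 fell in lactation, and 1 rose and 1 fell from lactation to involution. With median-ratio scaling the latter counts were 0 and 1. Kupffer cell markers ran from 146 to 280, 94.7 to 200 and 323 to 463 TPM in the same order. Of the 5, 4 fell in lactation (6.49% of all genes) and 5 rose from lactation to involution (18.1%), also with median-ratio scaling. Lymphocyte and neutrophil markers were 4.37 to 19.2, 4.23 to 9.2 and 13.3 to 20.7 TPM. All 5 rose from lactation to involution, 4 of them with median-ratio scaling and 2 among mice numbered 200 and above. Endothelial markers were 109 to 143, 61.1 to 113 and 147 to 163 TPM, with 3 of 5 higher at involution than in lactation (2 with median-ratio scaling). Stellate cell markers were 120 to 158, 83.9 to 103 and 116 to 152 TPM, and 2 of 5 fell in lactation. Cholangiocyte markers were 32.9 to 47.7, 19.4 to 29.6 and 29.4 to 39.8 TPM. Red blood cell markers were 197 to 847 TPM at involution against 1140 to 2410 in nulliparous mice, with 5 of 5 lower (0.912% of all genes). Pericentral hepatocyte markers, of the zone where Cyp7a1 is made, were 3130 to 8000, 1650 to 4490 and 2620 to 4560 TPM, and 3 of 6 fell in lactation. Periportal markers were 3600 to 4340, 3340 to 4250 and 3450 to 4240 TPM. Clock genes of the positive arm had median sums of 37.9, 38.3 and 54.3 TPM. Of these 4 genes, 2 were higher at involution than in lactation, but 0 with median-ratio scaling or among mice numbered 200 and above. Clock genes of the opposite phase had median sums of 39.1, 50.6 and 34.5 TPM. Of these 7 genes, 1 rose in lactation (2.72% of all genes) and 1 fell from lactation to involution (4.73%). Those counts were 1 and 2 with median-ratio scaling, and 0 and 0 among mice numbered 200 and above. The time of day of collection is not given in the sources used here.

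Between number ranges, where 6 of the 10 enzymes differed, 4 of 5 Kupffer cell markers and 3 of 4 positive-arm clock genes were higher in mice numbered 200 and above (16.5% of all genes), or 3 and 2 with median-ratio scaling. Of 7 clock genes of the opposite phase, 1 was higher and 0 were lower, or 1 and 1 with median-ratio scaling. Of 6 pericentral markers, 3 were lower (9.11% of all genes) and 1 was higher. Their sums were 5980 to 8000 TPM in nulliparous mice under 200 and 3130 to 4990 in the others, and 3790 to 4490 and 1650 to 1770 TPM in lactation. Summed hepatocyte markers were 53900 to 64800 and 68500 to 88700 TPM in nulliparous mice, and 94800 to 105000 and 123000 to 145000 in lactation. Of the 4 hepatocyte markers, 2 were higher in mice numbered 200 and above (16.5% of all genes), or 1 with median-ratio scaling. The part of these markers in the enzymes' values was not tested.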

How the data were processed

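Liver poly(A) RNA of 19 mice was sequenced by the authors with paired-end reads, aligned to GRCm38 and quantified with RSEM 1.3.1 on Ensembl annotation 89. The deposited values are TPM made by the authors, summing to 999999 to 1000001 in each mouse, so read depth is unknown and no counting interval is given. RSEM divides ambiguous reads by estimation. All 19 columns were matched to mice by title, and 0 of 171 pairs were identical. From the TPM, log2(TPM + 1) was fitted with limma-trend (limma 3.58.1, R 4.3.3) over the 16230 genes that averaged 0.1 TPM or more, with Benjamini-Hochberg adjustment and a threshold of 0.05. A change on this scale understates low genes. The study's DESeq2 test needs counts and was not run. Number ranges were fitted in 13 mice with stage as a covariate, and relations used 100000 permutations (numpy 2.4.6). The fits were tested on simulated data. Alternatives comprised a pseudocount of 0.1 or 0.5, no filter or one of 1 TPM, median-ratio scaling, robust moderation, only the compared groups, number range, the added threshold, and each mouse left out. Scaling and number range were applied to the pathway, regulator and marker lists after seeing the data. Gene positions are from GENCODE M21. The named genes are the 10 enzymes, 11 pathway genes, 11 regulators and the 5 most alike genes for 3 enzymes. Members and lists were chosen with earlier results of these data known.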

Additional observations from a re-analysis of the deposited data

Results flagged for a closer look

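Cyp7a1 in nulliparous mouse NUL_13 (68.3 TPM) stood far from the other 6 nulliparous mice, the next of which was at 23.2 TPM. The gap was 0.847 of the whole range of the group. Of 30 groups of 6 or 7 mice tested this way, 1 stood out, and chance gives about 1 in 20.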

How the results depend on the processing

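The number of members called in lactation was 2 over all mice, 5 with label-number range as a covariate, 1 in mice under 200 (an alternative chosen after seeing the data), 0 with the added threshold of 1, and 2 to 3 with each mouse left out. From lactation to involution it was 4, falling to 2 with median-ratio scaling and 2 with the added threshold, and 2 to 6 with each mouse left out (2 without mouse ID6_201). At involution relative to nulliparous mice it was 3, then 1 with no filter, 1 with median-ratio scaling, 0 in mice of 200 and above, 0 with the covariate, 0 with the added threshold and 1 to 4 with each mouse left out. Between ranges it was 6, or 4 to 6. Directions turned for members that were not called over all mice. Involution relative to lactation became 0.04 and 0.02 for Akr1d1 and -0.56 and -0.55 for Cyp39a1 (mice of 200 and above, covariate) and -0.09 for Amacr (median-ratio scaling). Relative to nulliparous mice it became 0.07 and 0.09 for Akr1d1 and 0.17 and 0.25 for Cyp7a1 (mice of 200 and above, covariate). Baat in lactation became 0.04 (median-ratio scaling) and 0.11 (mice of 200 and above), Cyp8b1 between ranges -0.07 (median-ratio scaling) and the Cyp39a1 interaction -0.0076 (pseudocount 0.1). With each mouse left out the range crossed 0 for Amacr (-0.01 to 0.12) and Cyp39a1 (-0.04 to 0.37) from lactation to involution, Baat in lactation (-0.07 to 0.06), Cyp7a1 at involution relative to nulliparous mice (-0.46 to 0.15), Cyp8b1 between ranges (-0.06 to 0.08) and the interactions of Akr1d1 (-0.22 to 0.02), Cyp39a1 (-0.13 to 0.23), Cyp7a1 (-1.01 to 0.02), Cyp7b1 (-0.10 to 0.61) and Slc27a5 (-0.13 to 0.15). Over all genes, 1494 calls in lactation became 2548 with the covariate and 533 in mice under 200, 3703 from lactation to involution became 2294 in mice of 200 and above, and 707 at involution relative to nulliparous mice became 367 (no filter), 396 (median-ratio scaling), 83 higher and 50 lower in mice of 200 and above, 255 (covariate) and 245 to 1487 with each mouse left out. The 18 interaction calls became 11 with a pseudocount of 0.1 or with median-ratio scaling, and 2 to 19 with each mouse left out. The cause of these changes was not tested. No paired analysis was possible because the stages share no replicate numbers. TPM keeps no depth, so what depth limits cannot be stated.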
